A study of Drosophila melanogaster with 28 samples.

Results

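Described here are 8 genes, *CG6337*, *CG31878*, *CG14752*, *CG8927*, *CG7330*, *CG15251*, *CG10264* and *CG32694*, which were among the genes with the highest ratios of CS females over *dsxD* pseudomales at 48 hour APF (after puparium formation). Each gene was measured by 1 array element, so that they are 8 of the 15744 elements in the data and 8 of the 124 elements that the study's Additional files list as female-biased genes downstream of *doublesex* (*dsx*). To be in that list, a gene needed a sex difference in wild type pupae (CS and Berlin together), the same difference in *tud* progeny, and a difference between CS females and *dsxD* pseudomales, with a difference in *tra* pseudomales for some of its genes. The values of those comparisons chose the genes and are given as a description without a test, whereas the comparisons with *dsx* nulls had no part in the choice.

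Transcript levels were compared directly between pupae of a pair of genotypes on the same spotted oligonucleotide array, with RNA from about 30 whole pupae a sample and 4 arrays for each of 7 comparisons (28 arrays). XX *dsxD* pseudomales (*dsxD / dsx M+R15*), XX *dsx* nulls (*dsx D+R3 / dsx M+R15*) and XX *tra* pseudomales (*tra/Df*, a mutant *tra* allele over a deficiency) were each set against CS (Canton S) females, and XY *dsx* nulls (*dsx D+R3 / dsx M+R15*) against CS males. Females were set against males in *tud* progeny, which are the offspring of *tud* mutant mothers and lack a germline, and in the wild type strains Berlin and CS. All XX mutants also carried an X chromosome marked with *GFP*, by which they were recognized and which is given with *y* and *w* for the *tra* and *dsxD* pseudomales only. The female *tud* progeny had a *y*, *w* chromosome with *GFP* from their fathers. The *dsxD* pseudomales and both *dsx* nulls share the *dsx M+R15* chromosome, and no source describes it in the other genotypes. The *dsxD* chromosome also carried the mutations *Sb* and *e*, whose effect cannot be told apart from that of *dsxD*. The values are log2 ratios, and they are given as deposited, that is, CS females over XX mutants, CS males over XY *dsx* nulls, and females over males, so that a positive value means a lower level in the mutant or in males.

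The sex of somatic cells in *Drosophila* is set by a cascade of splicing factors. In females, Sex lethal directs the production of active Transformer (TRA), and TRA directs the splicing of *dsx* transcripts to the female form, DSXF, whereas without TRA the male form, DSXM, is made by default. Both forms are transcription factors with the same DNA binding domain and different ends, and they shape the sexually dimorphic parts of the body. Thus *tra* pseudomales and *dsxD* pseudomales are XX animals with the male form, and *dsx* nulls of either chromosomal sex are intersexual animals with neither form. At 48 hour APF the adult epidermis is being formed and begins to secrete the adult cuticle. Of the 8 genes, *CG6337* is annotated by the study with cysteine-type endopeptidase activity and *CG31878* as a structural constituent of cuticle, and the other 6 as unknown.

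Current names, chromosome arms and neighboring genes were read from a Release 6 annotation table, a later one than the array design used. It lists all 8 as protein-coding genes, with *CG15251* and *CG32694* on the X chromosome, *CG6337* and *CG14752* on 2R, *CG8927* and *CG10264* on 3R, *CG31878* on 2L and *CG7330* on 3L. *CG15251* is now part of *CG43386*, and *CG31878* is listed as an older name of 2 neighboring genes, *CG42366* and *CG42367*, so that its element cannot be assigned to either of them here. *CG10264* is now *Jhbp4* and lies next to *Jhbp5*. These names stand for the juvenile hormone binding protein family, which in insects is named for proteins that carry juvenile hormone. *CG6337* lies next to *CtsL2*, named for cathepsin L, a cysteine protease. *CG15251* and *CG32694* are separated by 1 protein-coding gene, and *CG8927* and *CG10264* by 15. No member is in the study's lists of genes with male or female germline expression, of which 671 and 350 elements were found. The male list required higher levels in wild type males than females in the study's time course, so that female-biased genes were unlikely to enter it.

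The labels, and the direction of the ratios of females over males, were checked with *roX1*, a noncoding RNA of the male dosage compensation complex. It was between -9.01 and -3.96 on all 12 arrays that compared females with males, and between -0.46 and 0.36 on the arrays with *tra* pseudomales, *dsxD* pseudomales or XY *dsx* nulls that measured it. Values near 0 cannot show the direction, which for the mutants was taken from the headings of the study's Additional files. On the arrays with XX *dsx* nulls *roX1* was missing on replicates 1 and 2, was -0.23 on replicate 3 and was -4.41 on replicate 4, a value that goes against the XX label of that *dsx* null sample. On that array the 305 measured elements of the male germline list had a median of -0.08, against medians between -0.03 and 0.01 on the other 3 arrays. The results with XX *dsx* nulls are therefore also given without replicate 4. The number of elements measured on an array ranged over 4783 to 12023. The 8 genes had values on 188 of a possible 224 occasions. The authors left out elements with too little signal in both channels and spots flagged by the software or by eye, and which of these applied to a missing value is not known here. All 32 possible values were present with *dsxD* pseudomales and with XX *dsx* nulls, but only 12 of 32 in Berlin.

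In *dsxD* pseudomales the level of all 8 genes was far below that of CS females, which is the pattern they were chosen for. All 32 log2 ratios were between 2.07 and 4.43. *CG6337* had ratios of 4.32, 4.43, 3.43 and 3.52 on replicates 1 to 4, with a mean of 3.93 ± 0.53 (SD, n = 4). *CG31878* had 4.11, 3.59, 3.38 and 3.23, with a mean of 3.58 ± 0.38 (SD, n = 4). The lower ratios of the other 6 genes ran in order of their means over *CG14752* (3.16 ± 0.39), *CG8927* (2.90 ± 0.41), *CG7330* (2.75 ± 0.10), *CG15251* (2.70 ± 0.34), *CG10264* (2.58 ± 0.42) and *CG32694* (2.50 ± 0.32; SD, n = 4 each). The arrays of neighbors in this order overlap for every pair. Within the 124 elements, the members hold ranks 1, 2, 5, 7, 8, 9, 11 and 13. The elements that lie between them and are not members are those of *CG16884* (3.46, with values on 2 arrays), *CG16885* (2 elements, 3.35 and 3.13), *CG12164* (2.60) and *Cuticular protein 97Eb* (2.57), and the next below *CG32694* is *CG16886* (2.41 ± 0.71; SD, n = 4).

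**Figure D1:**
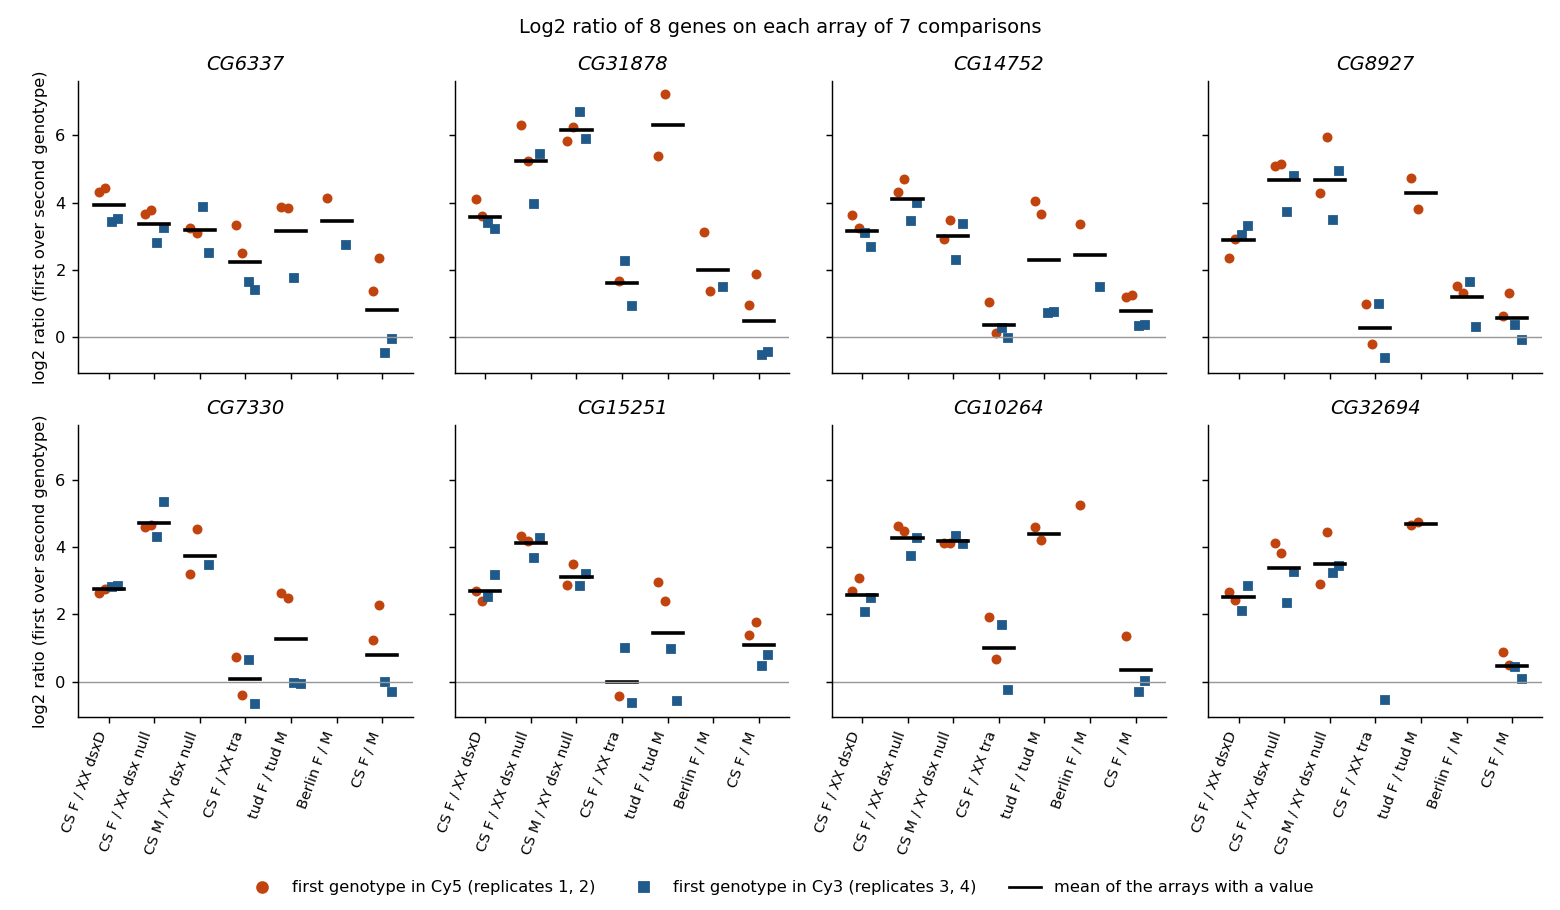
Log2 ratio (vertical axis) of each of the 8 genes on each array of the 7 comparisons (horizontal axis, F for female and M for male), with circles for arrays with the first genotype in Cy5, squares for arrays with it in Cy3, and a bar for the mean where at least 2 arrays had a value. All values in the 3 comparisons on the left, with *dsxD* pseudomales and *dsx* nulls, are above 2. Those with *tra* pseudomales are between -0.65 and 3.32 and those in CS between -0.52 and 2.36.

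The comparison of XX *dsx* nulls with CS females asked what the 8 genes do in XX pupae without any DSX. All 8 fell in XX *dsx* nulls. *CG6337*, the putative protease gene, had log2 ratios of CS female over XX *dsx* null of 3.66, 3.78, 2.81 and 3.24 on replicates 1 to 4 (a mean of 3.37 ± 0.44; SD, n = 4), which is a level 10.4-fold lower than in CS females. *CG31878*, annotated by the study as a cuticle gene, had the highest mean of the 8, with 6.32, 5.24, 3.97 and 5.43 on the arrays (5.24 ± 0.97; SD, n = 4), or 37.8-fold lower. For *CG10264* (*Jhbp4*) the values were 4.60, 4.47, 3.73 and 4.27 (4.27 ± 0.38; SD, n = 4), or 19.3-fold lower. Among these 3 genes with an annotation or family name, the arrays of *CG31878* lie above those of *CG6337* without overlap, and those of *CG10264* overlap with both.

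Among the genes of unknown function, *CG7330* had values of 4.59, 4.64, 4.29 and 5.33 in the same comparison, and *CG8927* had 5.09, 5.14, 3.72 and 4.79. Their means were nearly the same, at 4.71 ± 0.44 and 4.69 ± 0.66 (SD, n = 4 each). *CG14752* averaged 4.12 ± 0.53, *CG15251* 4.10 ± 0.29 and *CG32694* 3.38 ± 0.79 (SD, n = 4 each), which are levels 17.3-, 17.2- and 10.4-fold lower in XX *dsx* nulls. The lowest of the 32 values was 2.33, of *CG32694* on replicate 3, the array with the lowest value for all 8 genes.

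All 8 genes were called in XX *dsx* nulls (limma, Storey *q* below 0.15; *q* between 4.53e-05 and 0.000288), all with the lower level in the null. Over all 6867 elements tested 40.4% were called, with 20.2% called with the lower and 20.2% with the higher level in the null, around a median log2 ratio of -0.01. The members' ranks from the highest ratio were between 4 (*CG31878*) and 40 (*CG6337*), and 0.582% of all elements had a mean at or above the lowest of the 8. Without replicate 4 their means were between 3.42 (*CG6337*, 10.7-fold lower) and 5.18 (*CG31878*, 36.2-fold lower), their ranks were between 4 and 42, and all 8 were called, as were 31.9% of all elements. CS females were also on the *dsxD* arrays by which the genes were chosen, so that a high level in CS females would raise both. Whether the same RNA samples were used is not stated.

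XY *dsx* nulls were compared with CS males, and neither was on the *dsxD* arrays. Here, too, all 8 genes fell in the null. *CG31878* again had the highest ratios of CS male over XY *dsx* null, with 5.84, 6.23, 6.69 and 5.88 on replicates 1 to 4 (6.16 ± 0.39; SD, n = 4), a level 71.6-fold lower in the null. *CG6337* had 3.24, 3.11, 3.86 and 2.52 (3.18 ± 0.55; SD, n = 4), or 9.06-fold lower. *CG10264* varied least, with 4.13, 4.10, 4.33 and 4.10 (4.16 ± 0.11; SD, n = 4), or 17.9-fold lower. The 4 arrays of *CG31878* are above all arrays of these 2 other genes, and those of *CG10264* are above those of *CG6337*.

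*CG8927*, of unknown function, had values of 4.28, 5.94, 3.47 and 4.95 with XY *dsx* nulls, the widest spread of the 8 (4.66 ± 1.04; SD, n = 4). *CG7330* was measured on 3 arrays, with 3.20, 4.53 and 3.47. *CG32694* averaged 3.50 ± 0.67, *CG15251* 3.10 ± 0.31 and *CG14752* 3.01 ± 0.54 (SD, n = 4 each), which are levels 11.3-, 8.56- and 8.08-fold lower in the null. All 31 values with XY *dsx* nulls were above 2, as were all 32 with XX *dsx* nulls.

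All 8 were called in XY *dsx* nulls (limma, *q* between 3.19e-07 and 6.12e-05), with the lower level in the null. In this comparison 80.9% of 8583 elements were called in either direction, 34.2% with the lower and 46.7% with the higher level in the null, so that a call alone sets a gene apart little. The members' means, between 3.01 and 6.16, stand against a median over all elements of -0.10, their ranks were between 5 and 50, and 0.583% of elements had a mean at or above the lowest of the 8. The male germline list moved with this comparison, since 603 of its 665 tested elements were called with the lower level in XY *dsx* nulls (median log2 ratio 0.84). In a bulk sample of whole pupae, fewer cells of a type and less RNA per cell cannot be told apart. What is due to the loss of *dsx* and what to the rest of the *dsx M+R15* and *dsx D+R3* chromosomes cannot be told apart either. The same holds in XX *dsx* nulls for the X chromosome marked with *GFP*.

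**Figure D2:**
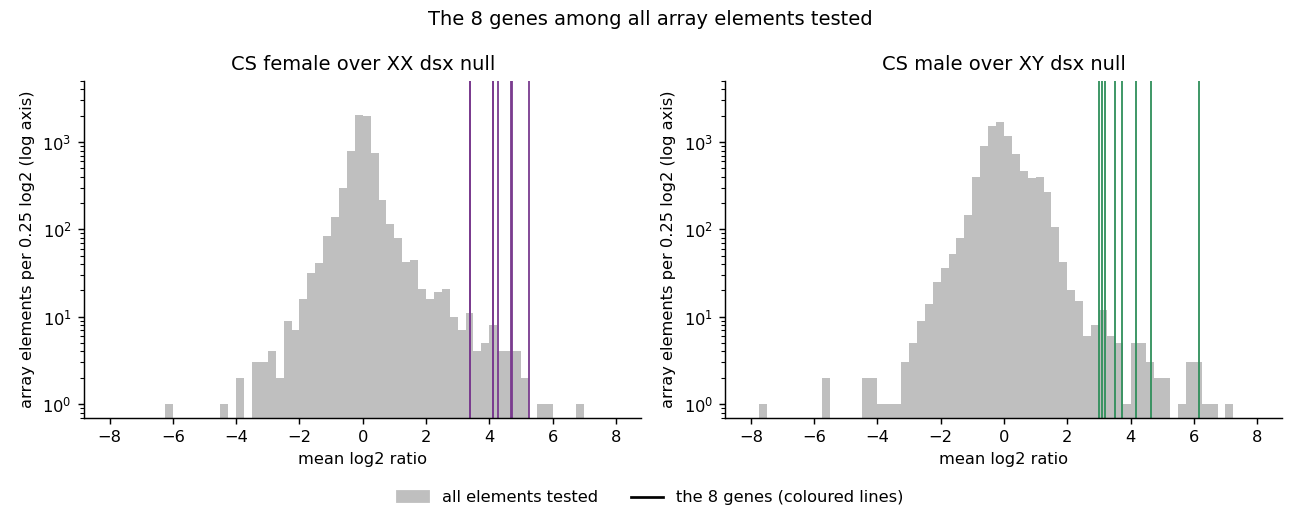
Number of array elements (vertical axis, log scale) by mean log2 ratio (horizontal axis, in steps of 0.25) for CS female over XX *dsx* null on the left and CS male over XY *dsx* null on the right, with colored lines for the 8 genes. The lines stand at 3.37 to 5.24 and at 3.01 to 6.16, in the upper tail of both distributions.

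A test of the XX effect against the XY effect asked whether the ratio of wild type over *dsx* null was the same in both chromosomal sexes. The XX *dsx* nulls carried the X chromosome marked with *GFP*, which is not given for the XY *dsx* nulls, and the wild types differed in sex. What part of a difference is due to *dsx* cannot be told apart from these. For *CG14752*, *CG15251* and *CG7330* the ratio was higher with XX *dsx* nulls, by 1.10 (95% interval 0.41 to 1.79; limma *q* = 0.0277), 1.00 (0.56 to 1.45; *q* = 0.0101) and 0.98 (0.22 to 1.74; *q* = 0.0457) on the log2 scale. All 4 XX arrays were above all 4 XY arrays for *CG15251*, but the arrays overlap for *CG14752* and *CG7330*. For *CG31878* the ratio was lower with XX *dsx* nulls, by -0.92 (-1.84 to -0.01; *q* = 0.0762). This call was lost under 5 of 17 alternatives, which were without XX replicate 3 (-0.50, *q* = 0.155), without XY replicate 3 (-0.75, *q* = 0.154), with the Benjamini-Hochberg adjustment (0.172), with arrays scaled to the same spread (0.179) and in a fit over all 28 arrays (0.171). In the last of these the call of *CG7330* was lost as well (*q* = 0.197).

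For the other 4 genes the difference did not pass the test, with 95% intervals of -0.45 to 0.84 for *CG6337*, -1.04 to 1.09 for *CG8927*, -0.32 to 0.53 for *CG10264* and -1.02 to 0.79 for *CG32694*. The interval is narrowest for *CG10264*, and for *CG8927* and *CG32694* it leaves room for a difference as large as those called. With the replicate number added to the fit, the standard errors of these 2 genes were 0.25 and 0.32, against 0.48 and 0.41 without it. Of all 6419 elements tested, 48.2% were called, so that 4 of 8 is near the background, with 36.8% called with the higher and 11.5% with the lower ratio in XX. The median of all elements was 0.19, and 76.2% of the calls were above 0, or 64.4% when each array was centered on its median. Without XX replicate 4 the same 4 genes were called, with differences of 1.14, 0.95, 0.77 and -0.99.

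**Figure D3:**
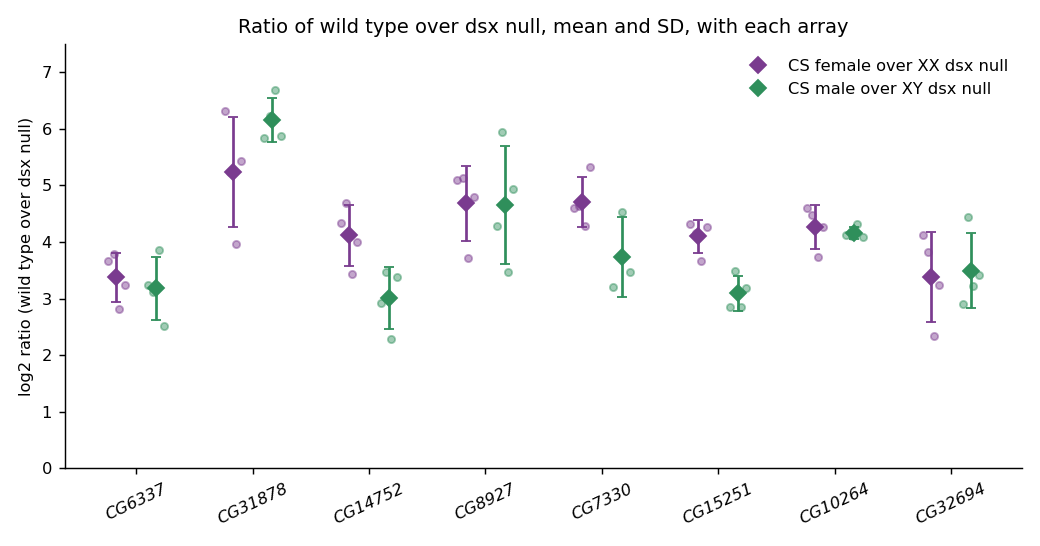
Log2 ratio of CS female over XX *dsx* null (purple) and CS male over XY *dsx* null (green) for each gene (horizontal axis), with diamonds and bars for the mean and SD over 4 arrays (3 for *CG7330* in XY) and small circles for each array. The 63 values are between 2.28 and 6.69.

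**Figure D4:**
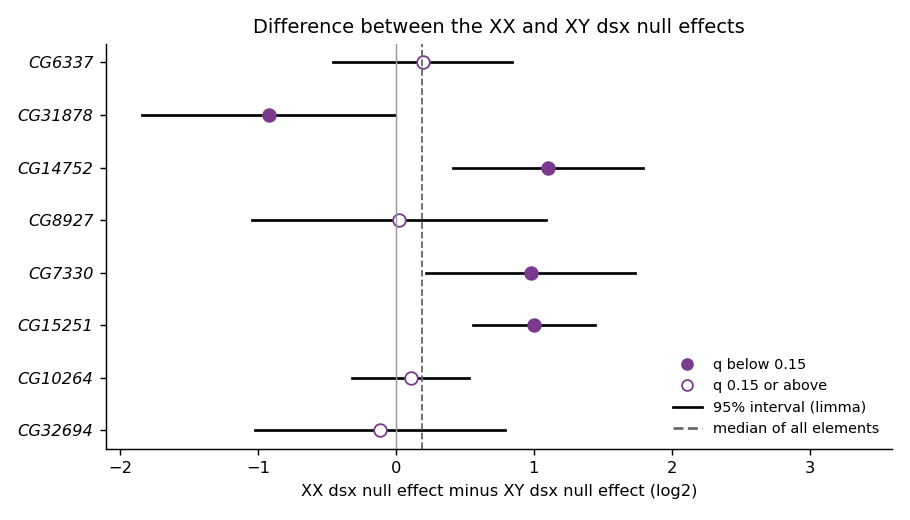
Difference of the XX and XY *dsx* null effects (horizontal axis, log2) for each gene, with its 95% interval, filled circles where *q* was below 0.15 and a dashed line at the median of all elements, 0.19. *CG14752*, *CG7330* and *CG15251* lie to the right of the dashed line with their intervals, and *CG31878* to the left of 0.

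These effects are each relative to the wild type of the same sex. Chained through the CS arrays, which helped to choose the genes and so allow no test, the level in XX *dsx* nulls over that in XY *dsx* nulls was between -0.32 (*CG14752*) and 1.40 (*CG31878*) on the log2 scale, with standard errors between 0.36 and 0.78. Without replicate 4 of the XX *dsx* nulls it was between -0.35 and 1.47, for the same 2 genes. With all arrays it was above 0 for 6 genes and below 0 for 2. For *CG14752*, *CG7330* and *CG15251*, called with the higher ratio in XX, the chained level was -0.32, -0.18 and 0.09 (SE 0.46, 0.75 and 0.36). Their mean log2 ratios of CS female over male were 0.79, 0.79 and 1.10. The order of the genes also differed between comparisons. *CG6337*, the first with *dsxD* pseudomales, was the last with XX *dsx* nulls and the sixth with XY *dsx* nulls, and *CG31878* was the first with both nulls. Without replicate 4 these places in XX *dsx* nulls stayed as they were, while *CG8927* was above *CG7330*. *CG6337* (3.37) and *CG32694* (3.38) were nearly equal in XX *dsx* nulls, also without replicate 4 (3.42 and 3.43). The order with *dsxD* pseudomales comes from values that chose the genes. Against CS females, *CG6337* had a mean ratio of 3.37 with XX *dsx* nulls and 3.93 with *dsxD* pseudomales, whereas *CG7330* had 4.71 with XX *dsx* nulls and 2.75 with *dsxD* pseudomales, which were not tested against each other.

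XX *tra* pseudomales have the male form, as *dsxD* pseudomales do. The median ratio with *tra* pseudomales was 0.36 over the 7 genes with values on at least 2 arrays, and beside it stand 2.83 with *dsxD* pseudomales and 4.19 with XX *dsx* nulls, all against CS females. The difference was not tested, and the genes were chosen for high ratios with *dsxD* pseudomales. *CG6337* had ratios of CS female over *tra* pseudomale of 3.32, 2.51, 1.64 and 1.41 (2.22 ± 0.87; SD, n = 4). *CG31878* had 1.67, 2.26 and 0.93 on 3 arrays (1.62 ± 0.66; SD). All values of these 2 genes were above 0.

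The other 6 genes had 20 values with *tra* pseudomales between -0.65 and 1.91, of which 11 were above 0 and 9 below. *CG10264* averaged 1.00 ± 0.99, with 1.91, 0.68, 1.68 and -0.25 on replicates 1 to 4. *CG14752* averaged 0.36 ± 0.47, *CG8927* 0.29 ± 0.82, *CG7330* 0.08 ± 0.72 (SD, n = 4 each) and *CG15251* -0.02 ± 0.89 (SD, n = 3), and *CG32694* had 1 value of -0.55. All of these but *CG32694* had arrays on both sides of 0. The *tra* element itself had a ratio of 0.90 ± 0.27 (SD, n = 4) on these arrays. Over all elements, the mean correlation between *tra* arrays was 0.70 for the same dye orientation and 0.37 for opposite orientations, the lowest of the 7 comparisons for opposite orientations. With 1 array left out, the mean of *CG7330* was between -0.14 and 0.33 and that of *CG15251* between -0.53 and 0.30.

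In CS, females and males differed less than CS females and *dsxD* pseudomales, for whose high ratios the genes were chosen. The mean log2 ratio of female over male was highest for *CG15251*, with 1.39, 1.75, 0.46 and 0.78 on replicates 1 to 4 (1.10 ± 0.58; SD, n = 4), and lowest for *CG10264*, with 1.36, -0.32 and 0.02 on 3 arrays (0.35 ± 0.89; SD). *CG6337*, which had the highest ratio with *dsxD* pseudomales, had 1.38, 2.36, -0.47 and -0.05 (0.80 ± 1.30; SD, n = 4). *CG31878* had 0.97, 1.89, -0.52 and -0.42 (0.48 ± 1.16; SD, n = 4). Only *CG14752*, *CG15251* and *CG32694* were above 0 on all 4 arrays. Without replicate 2 the means of *CG31878* and *CG6337* were 0.0096 and 0.29, and without replicate 1 that of *CG10264* was -0.15.

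The sex difference in CS varied with the dye orientation. With females in Cy5 (replicates 1 and 2) all 15 values of the 8 genes were above 0, between 0.49 and 2.36, whereas with females in Cy3 (replicates 3 and 4) 8 of 16 were above 0 and the values were between -0.52 and 0.78. The difference between the orientations had a median of 1.23 over the 8 genes, 0.57 over the other female-biased *dsx* elements and 0.02 over all elements. It was above 0 for 8 of 8 members, for 102 of 115 of the other female-biased *dsx* elements and for 5896 of 11450 of all elements. Replicate number and dye orientation are the same division of the arrays, so that a dye effect and a difference between the RNA samples used cannot be told apart. With *dsxD* pseudomales the corresponding median over the 8 genes was 0.31, with XX *dsx* nulls 0.74 and with XY *dsx* nulls 0.25, which is small beside the ratios in those comparisons.

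In *tud* progeny, which lack a germline, the division was wider. With females in Cy5 the ratios of female over male were all above 2, between 2.38 and 7.22, and *CG31878* had the highest, 5.39 and 7.22. *CG6337* had 3.87 and 3.84 on these replicates and 1.77 on the only other array that measured it. *CG14752* had 4.06 and 3.66 with females in Cy5 and 0.72 and 0.76 with females in Cy3. *CG7330* had 2.64 and 2.49 with females in Cy5 and -0.04 and -0.07 with females in Cy3.

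With females in Cy3, the *tud* arrays gave 7 of 16 possible values, between -0.58 and 1.77, and *CG31878*, *CG8927*, *CG10264* and *CG32694* had none. The means of these 4 genes, 6.30, 4.27, 4.40 and 4.69, thus rest on replicates 1 and 2 alone. Why they had no value on replicates 3 and 4 was not tested. Over all elements the mean correlation between *tud* arrays was 0.73 for the same orientation and 0.42 for opposite orientations.

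**Figure D5:**
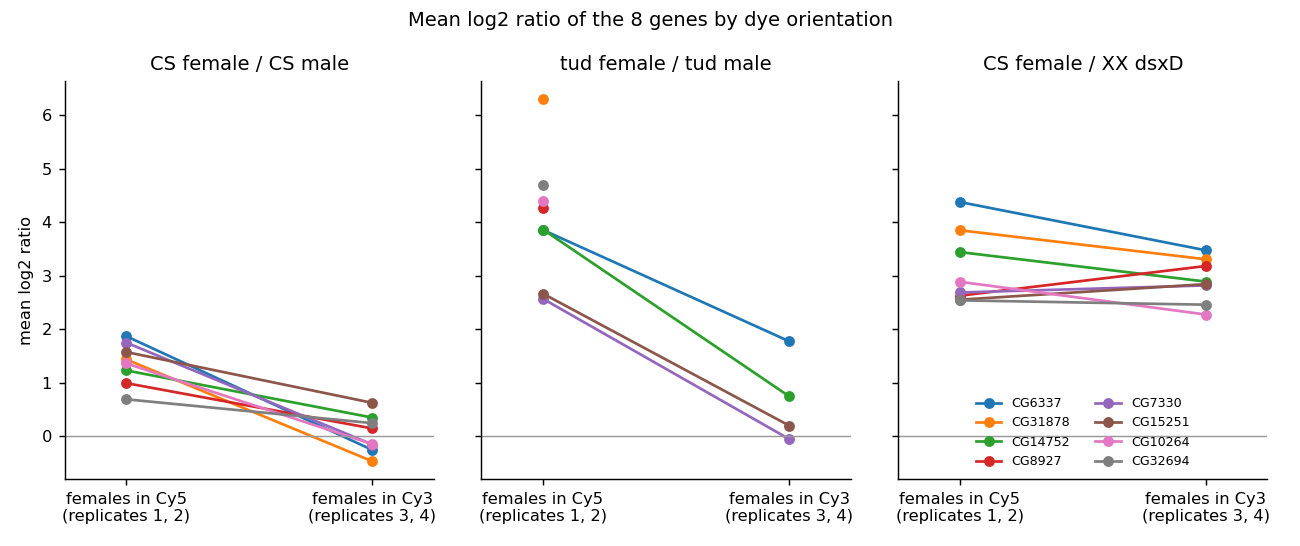
Mean log2 ratio (vertical axis) of each gene by dye orientation (horizontal axis) for females over males in CS and in *tud* progeny and for CS females over *dsxD* pseudomales, with 1 line a gene and a single point where arrays of the other orientation had no value. The ratios in CS and *tud* progeny are lower with females in Cy3, and those with *dsxD* pseudomales remain above 2 in both orientations.

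In Berlin, females and males could be compared for 4 of the 8 genes, since *CG7330*, *CG15251* and *CG32694* had no value and *CG10264* had 1, of 5.24. *CG6337* had log2 ratios of 4.15 and 2.73, *CG31878* 3.13, 1.39 and 1.50, *CG14752* 3.37 and 1.49, and *CG8927* 1.54, 1.32, 1.64 and 0.30. All 12 values were above 0. The means of these 4 genes were 3.44 ± 1.00 (SD, n = 2), 2.00 ± 0.97 (SD, n = 3), 2.43 ± 1.33 (SD, n = 2) and 1.20 ± 0.61 (SD, n = 4), and beside them stand means in CS of 0.80, 0.48, 0.79 and 0.57. The strains were not tested against each other, since both sets of arrays helped to choose the genes.

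Other genes of the same list and of cuticle and chitin were examined in the *dsx* nulls. Of the 116 other female-biased *dsx* elements, 106 of 110 tested were called with the lower level in XX *dsx* nulls and none with the higher, around a median log2 ratio of 1.36 (without replicate 4, 105 of 110 and a median of 1.39). In XY *dsx* nulls 100 of 109 were lower and 6 higher, also around a median of 1.36. CS females were also on arrays that chose these other elements, so that a high level in CS females would raise the XX ratios. The medians of the 8 genes were 4.19 in XX and 3.62 in XY *dsx* nulls. A list of genes for cuticle proteins and for the binding, synthesis and breakdown of chitin, in which *CG31878* was not counted, had 29 elements tested in XX *dsx* nulls, of which 20 were called with the lower level in the null and 5 with the higher (median 0.97). Without replicate 4 these were 18 and 5 of 27 (median 1.02). In XY *dsx* nulls 17 of 24 were lower and 7 higher (median 1.26). The list holds 13 elements that are also in the female-biased *dsx* list and so were chosen in part on these data. The counts and medians include them, and all elements called with the higher level in a null were outside that *dsx* list. The counts are thus no measure of cuticle genes as a group. All of its elements are ones that the study's Additional files name, so that other cuticle genes on the array could not enter it. Over all elements tested, 20.2% were called lower and 20.2% higher in XX *dsx* nulls. In XY *dsx* nulls these shares were 34.2% and 46.7%.

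In the cuticle list, the highest ratios with XX *dsx* nulls were those of *Cuticular protein 97Eb* (4.10 ± 0.42; limma SE, *q* = 0.000705), *Cuticular protein 66Cb* (3.52 ± 0.33; *q* = 0.000438) and *Peritrophin A* (3.37 ± 0.21; *q* = 9.58e-05), a gene of the chitin-binding peritrophin type. Without replicate 4 these 3 remained the highest, at 4.36, 3.51 and 3.31. With XY *dsx* nulls they were those of *Peritrophin A* (4.31 ± 0.13; *q* = 4.9e-07), *Cuticular protein 66Cb* (4.22 ± 0.15; *q* = 8.96e-07) and *Cuticular protein 72Ec* (3.56 ± 0.51; *q* = 0.000519). *Cuticular protein 97Eb* was at 0.65 ± 0.42 with XY *dsx* nulls, on 2 arrays (*q* = 0.0739), and *Cuticular protein 72Ec* at 1.14 ± 0.28 with XX *dsx* nulls (*q* = 0.0199). The lowest were the 2 elements of *Cuticular protein 49Ac* and that of *Chitinase 3*, an enzyme family that breaks down chitin, which were at -1.17, -0.91 and -0.62 with XX *dsx* nulls and at -1.37, -1.17 and -1.05 with XY *dsx* nulls, all called with the higher level in the null. The third gene from the lowest was *Pupal cuticle protein* with XX *dsx* nulls (-0.61, *q* = 0.0283) and *Cuticular protein 72Ea* with XY *dsx* nulls (-0.83, *q* = 0.0014). *CG31878* was above every element of the list in both comparisons.

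Among 1485 named elements outside the 8 genes with means in all 7 comparisons, those nearest to the median profile of the 8 (Euclidean distance over the means of the 7 comparisons) were *Peritrophin A* (1.36), *CG16885* (1.60), *CG11380* (1.67), *CG15322* (1.78) and *Cuticular protein 66Cb* (1.80). The first 4 are in the female-biased *dsx* list and *Cuticular protein 66Cb* is not. Only elements that the study's Additional files list with a gene number have a name here, 2357 of 15744. The rest of the array was not searched. Without replicate 4 of the XX *dsx* nulls the same 5 were the nearest, in the same order (1.41 to 1.81). *Peritrophin A* had means of 2.39 with *dsxD* pseudomales, 3.37 with XX and 4.31 with XY *dsx* nulls, 0.70 with *tra* pseudomales, and 4.08, 1.73 and 0.53 for the sex difference in *tud* progeny, Berlin and CS. The median profile of the 8 genes in the same order was 2.83, 4.19, 3.62, 0.36, 3.72, 2.22 (4 genes) and 0.68. In *tud* progeny, *CG31878*, *CG8927*, *CG10264* and *CG32694* entered this profile with females in Cy5 alone. For the members measured in both orientations there, the orientations differed by a median of 2.55. The distances share this limit. Of the members with a mean in every comparison, *CG14752* (1.59) and *CG8927* (1.65) were as near to this profile as these genes, while *CG6337* (2.71) and *CG31878* (4.06) were farther from it.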

How the data were processed

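The values the authors deposited are log2 ratios of the channels of each array after a global loess normalization with LIMMA, and dye swaps were already turned. Spots were kept by the authors if more than 75% of the pixels of either channel exceeded the background by 1 SD and neither GenePix Pro nor inspection by eye had flagged them. Each labeling used 30 µg of RNA. Background correction and scaling are not given in the sources used here. The direction of the ratios was taken from the headings of the study's Additional files, whose signs fitted all 124 female-biased elements with *dsxD* pseudomales. For replicates 2 and 4 of *tud* progeny the sex labels of channel 2 differ between fields, and the source names were used.

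After 32 control elements were left out, limma 3.58.1 (R 4.3.3) tested each element with values on at least 2 arrays of a comparison, two-sided, with *q* values by Storey's method (lambda 0.05 to 0.95 in steps of 0.05), called below 0.15. XX minus XY was fitted over 8 arrays. A planned test of CS against Berlin was left out, since those arrays helped to choose the genes. Nothing states that replicate arrays came from separate pupae, so that *q* values measure the spread between arrays, whose number limits the precision. The members, lists and tests were chosen with earlier results of these data known. Lists, profiles and levels without XX *dsx* null replicate 4, the chained levels, and the differences between dye orientations were added after seeing the data. Genes named in the text are the members, their neighbors in the *dsxD* order, the 5 nearest profiles, *roX1*, *tra*, and the 3 cuticle genes with the largest changes in each direction. No probe sequence is printed. Figures were drawn with matplotlib 3.10.9.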

Additional observations from a re-analysis of the deposited data

Results flagged for a closer look

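In XY *dsx* nulls the value of *CG10264* on replicate 3, 4.33, stood apart from the other 3 arrays, which were close together. The 4 arrays of this gene had the smallest spread of the 8 genes (SD 0.11), and the gene was also called without that array. About 1 in 20 groups of 4 values is flagged by chance, and 1 of the 39 examined was. The XX and XY *dsx* null effects differed by test for *CG14752* (1.10), *CG15251* (1.00), *CG7330* (0.98) and *CG31878* (-0.92), where 48.2% of all elements differed.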

How the results depend on the processing

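All 8 genes were called in XX and in XY *dsx* nulls under each of 12 alternatives (adjustment, dye term, minimum number of arrays, centering, scaling, unmoderated test, a fit over all 28 arrays, and each array left out), with means between 3.13 and 5.66 in XX and between 2.86 and 6.27 in XY. The count of genes whose XX and XY effects differed was 4, was 3 to 4 with an array left out, was 3 with the Benjamini-Hochberg adjustment and 3 with arrays scaled, and was 2 in the fit over all arrays, where *CG31878* (*q* = 0.171) and *CG7330* (0.197) were lost. Of the 4 without a call, *CG8927* was -0.052 after centering, and with an array left out it was between -0.37 and 0.45, *CG6337* between -0.0276 and 0.42, *CG10264* between -0.0049 and 0.29 (called without XX replicate 3, *q* = 0.131) and *CG32694* between -0.36 and 0.24. The cause was not tested. Alternatives of a CS against Berlin test were not run, as that test was left out. For replicates 1 and 2, same-numbered XX and XY arrays deviated together (correlations of 0.42 and 0.23), more than differently numbered ones (at most -0.10 and 0.05). For replicates 3 and 4 they did not do so more (0.09 and 0.11, against 0.11 and 0.16). Whether the numbers pair the samples is thus not known. With a replicate block the count was 4. The ratios cannot show whether the weaker channel was above background, so that the largest ones may be limited by it, and missing values limit Berlin and *tud* progeny most. In the comparisons that chose the genes, leaving out 1 array changed the sign of the mean of 1 of 8 genes in CS and of 2 of 7 with *tra* pseudomales.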
